A study of Mus musculus and Homo sapiens with 8 samples.

Results

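The genes described here are 8 that encode cell guidance receptors or their partners. They include the netrin and repulsive guidance receptor neogenin (NEO1) and the semaphorin receptors plexin D1 (PLXND1), plexin B2 (PLXNB2) and plexin C1 (PLXNC1). The others are neuropilin 1 (NRP1), a co-receptor for some plexins, the semaphorin SEMA4D, and the receptor tyrosine phosphatases PTPRS and PTPRF. The 8 genes were chosen by name, with results of both comparisons below already known, so their differences are given as descriptions. SEs and intervals of the 8 genes come from the edgeR fit and are not the spread of a gene's own libraries. Ptprf in LSK cells, for instance, had an SE of 0.29 and a replicate SD of 0.013 in log2. SEs, intervals and counts past a threshold describe these libraries only, carry no p-value for the 8 genes and support nothing further. All 8 were listed and tested in both species, among 26538 gene symbols in all, 20296 in the human and 17097 in the mouse tables. RNA sequencing compared 4 groups of 2 libraries each. In the mouse, LSK cells (lineage-negative, Sca-1+ and Kit+ stem and progenitor cells of the bone marrow) of C57BL/6 WT animals were set against LSK cells of C57BL/6 Anp32b-KO animals. In the human line KU812, which derives from the peripheral blood of a patient with chronic myelogenous leukemia, cells carrying the control hairpin shNC were set against cells carrying shANP32B. ANP32B is an acidic nuclear histone chaperone. The age of the animals, the part of Anp32b that was deleted and the sequence of the hairpin were not stated, and KU812 is 1 line. Whether replicate libraries came from different mice or dishes was not stated either, and p-values here reflect only the variation among libraries, possibly of a technical kind.

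Neogenin, plexins and neuropilins were first described in the growing nervous system, where they steer axons, and they also act in vessels and in blood cells. Neogenin binds netrins and the repulsive guidance molecules and serves as a co-receptor for bone morphogenetic proteins. Plexins bind semaphorins and act on small GTPases through a GTPase-activating domain inside the cell, so that the cytoskeleton and integrin adhesion are loosened or moved. PTPRS and PTPRF belong to the LAR family of phosphatases, whose outer part binds heparan sulfate proteoglycans and whose inner part removes phosphate from tyrosine.

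The targeted gene was low in the libraries labelled as depleted. ANP32B stood at 250 and 285 CPM (counts scaled to library size, with TMM factors) in the shNC libraries and at 40.3 and 38.1 CPM in the shANP32B libraries, a log2 fold change of -2.77 (SE 0.12, adjusted p = 5.18e-08 by edgeR). Anp32b stood at 793 and 730 CPM in WT and at 201 and 248 CPM in KO cells, a log2 fold change of -1.76 (SE 0.17) that did not pass the threshold (adjusted p = 0.148 by edgeR). Between 10549358 and 15683480 counts were listed per LSK library and between 24416691 and 28209409 per KU812 library, so that a floor of 3 counts stood for 0.196 to 0.286 CPM and 0.107 to 0.122 CPM. Floors cover counting error only. The 2 WT libraries differed from each other more than any other replicate pair, with a chi-square of 44.2 per degree of freedom against 7.31 to 17.8, a value that does not say which of them is apart. Kit (334, 371, 399 and 355 CPM in WT 1, WT 2, KO 1 and KO 2) and Ly6a, which encodes Sca-1 (60.2, 45.5, 37.8 and 43.4 CPM), were present in every LSK library. KU812 carried the basophil and mast cell genes HDC, at 1092 to 1255 CPM, and FCER1A, at 593 to 787 CPM. Of 11 lists of cell type markers, 7 of 12 tested erythroid genes were lower in shANP32B, with a summed level of 5374 and 6179 CPM in shNC and 3752 and 4025 CPM in shANP32B. Of 6 tested neutrophil genes, 3 were higher (8.33 and 8.13 CPM in sum against 22.6 and 20.1 CPM), and of 13 basophil and mast cell genes 3 were higher and 2 lower. Endothelial genes had 2 higher and 1 lower of 8, and the other lists 0 to 2 in each direction, all at adjusted p under 0.05 by edgeR. In LSK cells no marker gene passed, but 5 summed levels did not overlap between the groups: neutrophil genes (8351 and 6554 CPM in WT, 4622 and 5958 CPM in KO), stromal genes (130 and 120, 77.5 and 87.6 CPM), macrophage genes (505 and 476, 432 and 425 CPM), dendritic cell genes (1004 and 953, 933 and 943 CPM) and endothelial genes (536 and 538, 607 and 574 CPM). Taken singly, 33.2% of all genes tested in LSK cells did not overlap between the groups either, so nothing is read from the count of 5. The part of the marker differences of both systems in the results below was not tested. In bulk RNA, fewer cells of a type and less RNA per cell cannot be told apart.

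The stretch of 250 bases before the start site is shown for the mouse genes whose human counterparts stood furthest apart between the KU812 groups, so that the start regions of the genes can be compared. The sequences are from RefSeq (GRCm38.p6), all 4 on the minus strand and written 5′ to 3′, and the capitals mark the E-box CACGTG or the GC box, GGGCGG or CCGCCC, both searched on both strands. The human promoters were not used here, so no sequence below belongs to a gene in which a KU812 value was measured.
Ptprs, chr17:56476481-56476730: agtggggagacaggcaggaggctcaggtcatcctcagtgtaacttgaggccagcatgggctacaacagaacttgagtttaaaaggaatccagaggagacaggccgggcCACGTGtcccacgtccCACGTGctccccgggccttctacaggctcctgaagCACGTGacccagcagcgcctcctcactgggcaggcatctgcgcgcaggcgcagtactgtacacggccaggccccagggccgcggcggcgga
Ptprf, chr4:118291398-118291647: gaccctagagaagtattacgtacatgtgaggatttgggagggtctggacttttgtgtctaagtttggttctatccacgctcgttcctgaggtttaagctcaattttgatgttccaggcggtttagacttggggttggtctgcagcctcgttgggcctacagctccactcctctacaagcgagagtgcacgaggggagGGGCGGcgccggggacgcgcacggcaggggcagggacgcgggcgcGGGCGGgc
Neo1, chr9:59036442-59036691: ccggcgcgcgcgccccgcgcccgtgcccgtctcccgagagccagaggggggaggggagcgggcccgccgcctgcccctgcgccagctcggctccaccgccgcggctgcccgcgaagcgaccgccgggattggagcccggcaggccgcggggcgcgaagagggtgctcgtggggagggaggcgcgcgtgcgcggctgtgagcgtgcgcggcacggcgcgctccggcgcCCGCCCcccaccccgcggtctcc
Plxnd1, chr6:115995006-115995255: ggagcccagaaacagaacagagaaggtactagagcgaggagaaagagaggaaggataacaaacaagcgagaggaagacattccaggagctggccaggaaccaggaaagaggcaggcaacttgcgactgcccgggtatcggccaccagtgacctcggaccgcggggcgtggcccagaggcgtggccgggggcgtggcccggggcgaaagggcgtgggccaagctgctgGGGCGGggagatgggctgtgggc
The Ptprs window held 3 E-boxes and no GC box, while the Ptprf window held 2 GC boxes, the Neo1 and Plxnd1 windows 1 each, and none of these had an E-box. At least 1 E-box occurred in 6.02% of the 32851 windows of this length in the table, and 3 or more in 20 windows (0.0609%). At least 1 GC box occurred in 32.7% of them. The Neo1 window had a GC content of 83.2%, against a median of 52.4% over all windows, 64.8% for Plxnd1, 64.0% for Ptprs and 59.2% for Ptprf. The 2 other mouse plexins of the set, Plxnb2 and Plxnc1, held 4 GC boxes each and no E-box. Nrp1, whose human counterpart was higher in shANP32B as PTPRS was, held 1 GC box and no E-box, and Sema4d held neither. The starts used for Nrp1 and Sema4d lie 469 and 37064 bases inside the gene, counted from its GENCODE start. For the other genes this distance was 0 to 10 bases. The Nrp1 and Sema4d windows therefore do not describe the stretch before the GENCODE start. Ptprs and Plxnb2 had 2 windows each and Sema4d 3, and 1 of each is described here. A match is a description of these letters and not of a factor bound there.

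In KU812, 6 of the 8 genes passed the threshold of an adjusted p under 0.05 by edgeR, 4 lower and 2 higher in shANP32B. Over all 16529 genes tested the share was 16.6%, 9.06% lower and 7.53% higher, and since the genes were chosen with this contrast in view nothing is read from the count. At least a 2-fold difference was found for 5 of them (5.0% over all genes), and the groups did not overlap for 7 (58.5% over all genes). The directions were mixed within the set. Their median log2 fold change was -0.38, against 0.0041 over all genes tested, and the values ran from -2.72 to 2.77.

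**Figure D1:**
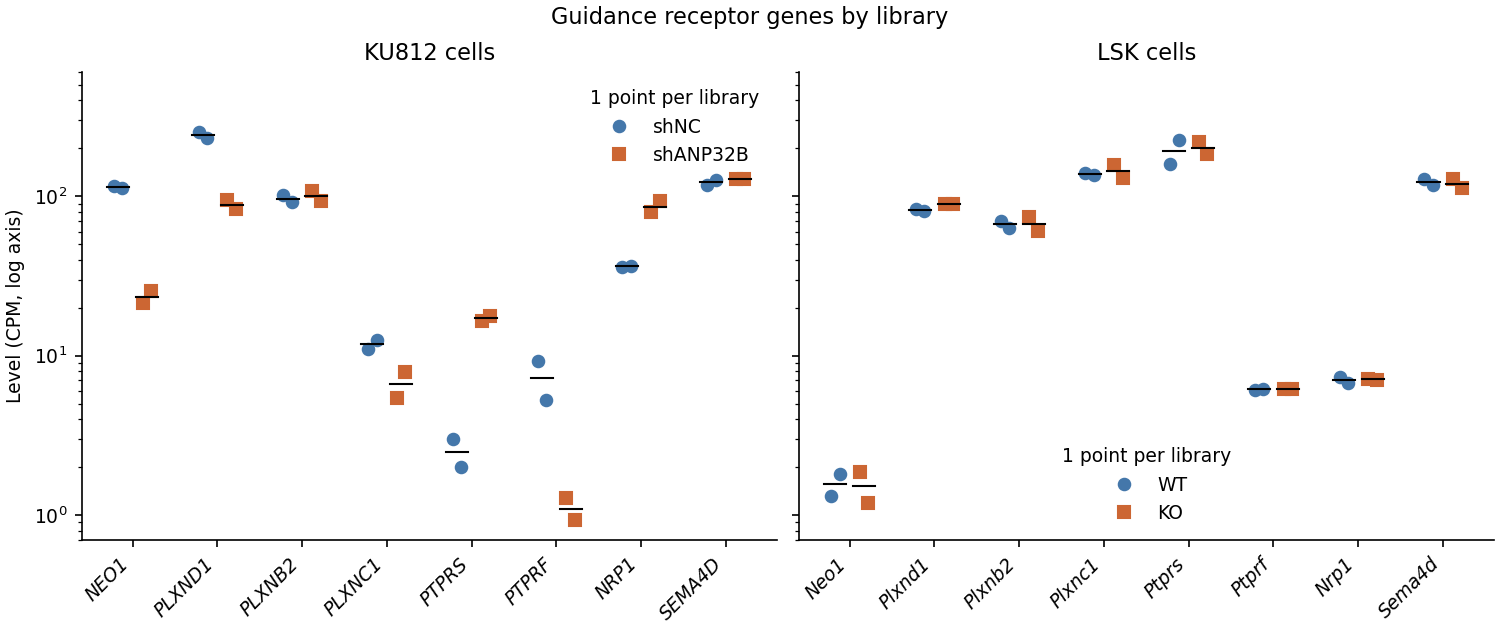
Level of each gene in CPM on a log axis in KU812 (left) and LSK cells (right), with 1 point per library and a line at the mean of each pair. In KU812 the shANP32B squares of NEO1, PLXND1, PLXNC1 and PTPRF lie below the shNC circles and those of PTPRS and NRP1 above them, while in LSK cells the KO squares lie on or beside the WT circles.

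Neogenin was lower in the depleted cells. NEO1 stood at 116 and 113 CPM in shNC and at 21.4 and 25.4 CPM in shANP32B, from 2780 to 3242 counts in the first group and 555 to 630 in the second. Both depleted libraries were far below both controls, and the libraries of each group lay close together. The means were 114 ± 1.998 and 23.4 ± 2.83 CPM (SD, n = 2 each), 4.89-fold lower in shANP32B, with a log2 fold change of -2.29 (SE 0.13).

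The 3 plexins differed from each other. PLXND1, which binds SEMA3E and acts in vessel patterning, stood at 254 and 232 CPM in shNC and at 94.6 and 82.9 CPM in shANP32B, with no overlap. The means of 243 ± 15.5 and 88.8 ± 8.33 CPM gave a 2.74-fold lower level in shANP32B and a log2 fold change of -1.45 (SE 0.12). PLXNC1, the receptor of SEMA7A on leukocytes, was a low gene, at 11.04 and 12.6 CPM in shNC and 5.44 and 7.90 CPM in shANP32B. Its 2 depleted libraries were also below both controls, but further apart from each other than those of PLXND1. The means of 11.8 ± 1.08 and 6.67 ± 1.74 CPM gave a log2 fold change of -0.82 (SE 0.25), which became -0.58 without the first shANP32B library. There, and with library totals in place of TMM scaling (-0.77), PLXNC1 no longer passed the threshold.

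PLXNB2, a receptor of SEMA4C and SEMA4D and of angiogenin, was similar in all 4 libraries. It stood at 102 and 91.6 CPM in shNC and at 107 and 93.6 CPM in shANP32B, so that the groups overlapped. The log2 fold change was 0.055, with a 95% confidence interval of -0.21 to 0.32.

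NRP1, which holds class 3 semaphorins and VEGFA at the cell surface for plexins and VEGF receptors, was higher in the depleted cells. Its levels were 36.2 and 36.7 CPM in shNC and 79.3 and 92.9 CPM in shANP32B. The controls were nearly equal and both depleted libraries were above them. The means were 36.4 ± 0.335 and 86.1 ± 9.67 CPM, a 2.36-fold higher level and a log2 fold change of 1.24 (SE 0.13). NRP1 is also made by endothelial cells. Of 12 endothelial markers 9 were listed, with a summed level of 1168 and 848 CPM in shNC and 1014 and 797 CPM in shANP32B, so that the groups overlapped. Of the 8 tested, KDR (log2 fold change 1.67) and ESAM (0.76) rose and TIE1 fell (-1.04), with adjusted p of 0.00144, 0.00164 and 0.000556 by edgeR. CDH5, STAB2 and CLDN5 are not listed in the human tables, whose listed genes each sum to at least 10 counts over the 4 libraries. The part of endothelial genes in the level of NRP1 was not tested.

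SEMA4D, the only ligand of the set, differed little between the groups. It stood at 119 and 126 CPM in shNC and at 128 and 128 CPM in shANP32B. Both depleted libraries were slightly above the controls, and the log2 fold change of 0.062 had a 95% confidence interval of -0.17 to 0.30. With PLXNB2, one of its receptors, it was one of the 2 genes of the set that did not pass the threshold in KU812.

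The pair of LAR family phosphatases went in opposite directions. PTPRS stood at 3.002 and 1.99 CPM in shNC and at 16.6 and 17.7 CPM in shANP32B, from 84 and 49 counts and 431 and 438 counts. Both depleted libraries were well above both controls. The means of 2.50 ± 0.714 and 17.1 ± 0.734 CPM differed 6.86-fold, with a log2 fold change of 2.77 (SE 0.26). PTPRF stood at 9.22 and 5.29 CPM in shNC and at 1.27 and 0.927 CPM in shANP32B, from 258 and 130 counts and 33 and 23 counts. The depleted libraries were both below the controls, but the controls were unequal. The means of 7.25 ± 2.78 and 1.10 ± 0.244 CPM were 6.60-fold apart, with a log2 fold change of -2.72 (SE 0.38) that ran from -2.26 without the first shNC library to -3.07 without the second. PTPRD, the remaining LAR phosphatase, was almost absent, with 4 to 8 counts per library.

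**Figure D2:**
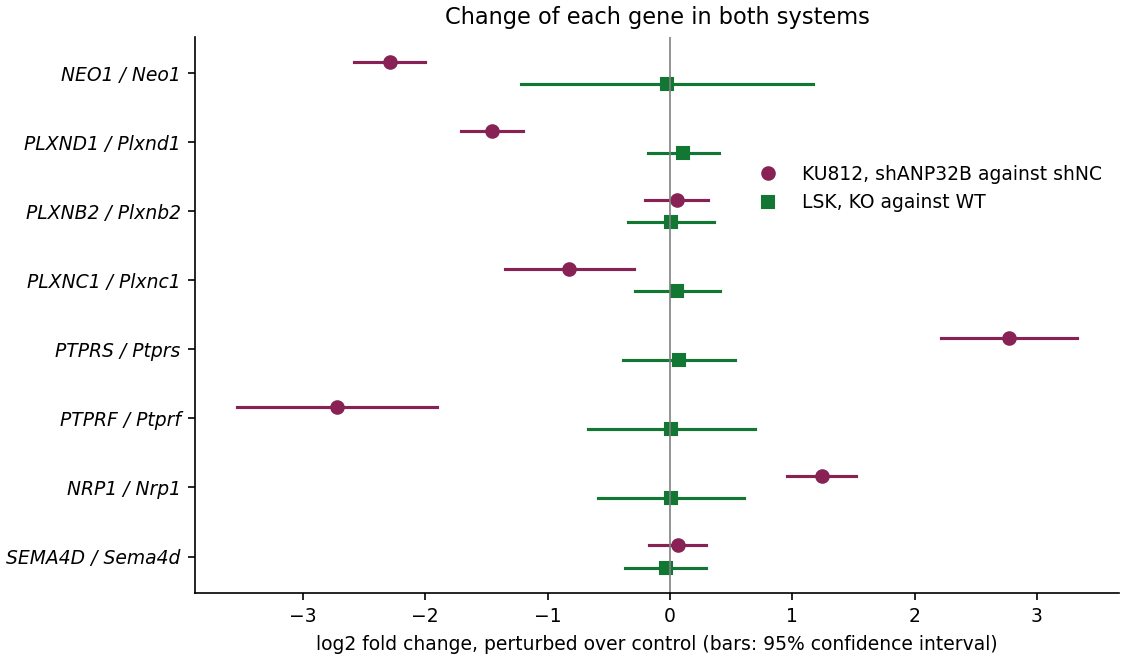
log2 fold change of each gene with its 95% confidence interval, for shANP32B against shNC in KU812 (circles) and KO against WT in LSK cells (squares). The KU812 values run from -2.72 for PTPRF to 2.77 for PTPRS, while the LSK values lie between -0.033 and 0.11 with the widest interval for Neo1.

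In LSK cells none of the 8 genes passed the threshold, and neither did any of the 14598 genes tested by edgeR (0.0%). By the unadjusted p under 0.05, 657 genes passed (4.5%), DESeq2 called 12 genes and limma-voom 0. The log2 fold changes of the 8 genes ran from -0.033 to 0.11 with a median of 0.011, against -0.0079 over all genes. The groups did not overlap for 1 of the 8 genes, Plxnd1 (33.2% over all genes).

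Neo1 was nearly silent in LSK cells. It had 20 and 19 counts in WT and 23 and 17 in KO, or 1.31 and 1.81 CPM and 1.87 and 1.19 CPM, so that the groups overlapped. At this depth the log2 fold change of -0.025 had a 95% confidence interval of -1.22 to 1.17, and it moved between -0.38 and 0.27 when 1 library was left out.

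Among the plexins, Plxnd1 stood at 83.7 and 80.8 CPM in WT and at 88.9 and 88.9 CPM in KO, a log2 fold change of 0.11 (SE 0.13). Both KO libraries were above both WT libraries, by 1.08-fold in the mean and opposite to the direction of PLXND1 in KU812. The difference between the systems was not tested. Plxnb2 stood at 70.1 and 63.4 CPM in WT and 74.3 and 60.3 CPM in KO, and Plxnc1 at 140 and 136 CPM in WT and 157 and 130 CPM in KO. For both, 1 KO library was above and the other below the WT pair, and the log2 fold changes were 0.0098 and 0.060 (SE 0.15 each).

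Nrp1 stood at 7.33 and 6.77 CPM in WT and 7.15 and 7.05 CPM in KO, and Sema4d at 128 and 118 CPM in WT and 128 and 112 CPM in KO. The groups of both genes overlapped, with log2 fold changes of 0.0087 (SE 0.26) and -0.033 (SE 0.14). The 12 endothelial markers, all listed, summed to 536 and 538 CPM in WT and 607 and 574 CPM in KO, higher in both KO libraries. Among them Cdh5, Stab2 and Cldn5 had 0 to 10 counts per library, and none of the 9 tested passed.

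Ptprs was the most variable of the 8 genes between the WT libraries, at 159 and 226 CPM, with 219 and 185 CPM in KO. The KO libraries lay between the WT libraries, and the log2 fold change of 0.072 (SE 0.20) became -0.17 without the first WT library and 0.35 without the second. Ptprf was the steadiest, at 6.09 and 6.20 CPM in WT and 6.18 and 6.21 CPM in KO, from 65 to 93 counts, with a log2 fold change of 0.012 (SE 0.29). The 95% confidence intervals were -0.39 to 0.53 for Ptprs and -0.67 to 0.70 for Ptprf, and the difference from the KU812 values was not tested.

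Divided by exonic length (GRCm38), the levels of the 8 genes in WT LSK cells formed a high and a low group. Plxnc1 was highest at 16.5 ± 0.346 CPM per kb (SD, n = 2), next to Sema4d at 16.0 ± 0.888, and these 2 overlapped between libraries. Ptprs followed at 12.8 ± 3.18 and Plxnd1 at 11.3 ± 0.282, which overlapped as well, and then Plxnb2 at 8.64 ± 0.611 CPM per kb. Nrp1 at 0.721 ± 0.0409, Ptprf at 0.671 ± 0.00823 and Neo1 at 0.179 ± 0.0407 CPM per kb made up the low group, and none of these 3 overlapped with its neighbour. Within their families, Plxnc1, Plxnd1 and Plxnb2 were the 3 highest of 8 listed plexins, ahead of Plxna3 at 2.17 CPM per kb. Sema4d was the highest of 15 listed semaphorins, ahead of Sema4a at 8.35. Ptprs had rank 3 of 15 receptor-type phosphatases after Ptpre (19.8) and Ptprc, which encodes the leukocyte antigen CD45 (19.0), and overlapped with Ptpra, while Ptprf had rank 8. KU812 levels were not divided by length, because human gene lengths were not used here.

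**Figure D3:**
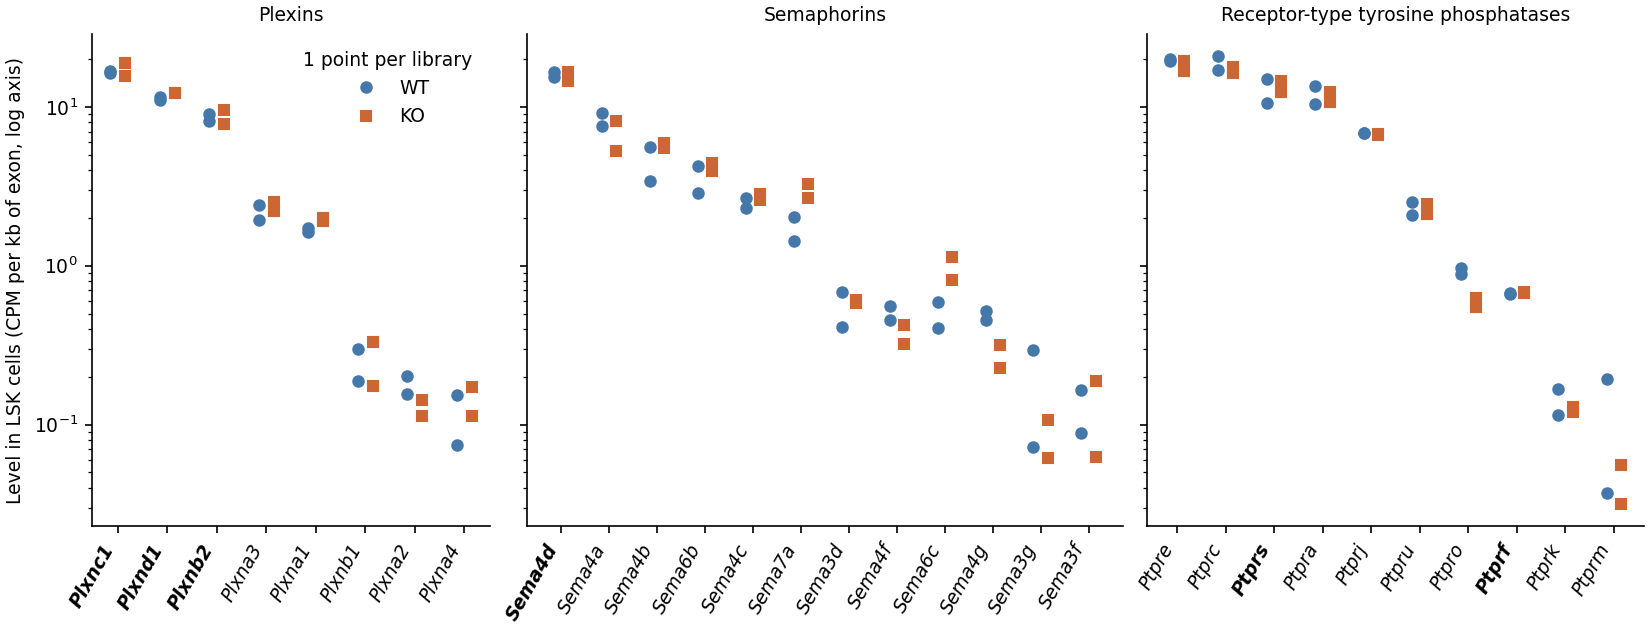
Level per kb of exon in LSK cells on a log axis for listed plexins, semaphorins and receptor-type tyrosine phosphatases with a mean of at least 0.1 CPM per kb, with 1 point per library and the genes of the set in bold. Plxnc1, Plxnd1, Plxnb2 and Sema4d head their families, Ptprs has rank 3 and Ptprf rank 8.

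The mouse genes lie on 8 chromosomes and are all protein coding (GENCODE on GRCm38). Neo1 lies at chr9:58874687-59036441, Plxnd1 at chr6:115954811-115995005, Plxnb2 at chr15:89155549-89180788, Plxnc1 at chr10:94790866-94944835, Ptprs at chr17:56412426-56476483, Ptprf at chr4:118208213-118291405 and Sema4d at chr13:51685529-51793747, all on the minus strand. Nrp1 lies on the plus strand at chr8:128358604-128503363. Shared exonic bases are few: 115 of Plxnc1 with the predicted gene Gm48718 and 80 of Nrp1 with Mir1903, both on the same strand, and none in the other 6 genes.

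The other guidance genes were taken from 9 lists of related families, without the 8 genes above. In KU812, 119 of these genes were tested and 32 passed the threshold, 17 higher and 15 lower (26.9%, against 16.6% over all genes), with a median log2 fold change of 0.0081. The lists were chosen with earlier results of these data known, so nothing is read from this share. Without either shANP32B library fewer genes passed, both in these lists and over all genes, so the lower count is not particular to the lists. Adjusted p-values in this and the following paragraphs are by edgeR over all genes tested.

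None of the 3 tested genes of the netrin and RGM pathway passed, and all were low. UNC5B, a netrin receptor, had the highest mean of them in shNC, at 2.61 and 2.40 CPM in shNC and 1.81 and 1.73 CPM in shANP32B (log2 fold change -0.50, adjusted p = 0.436). NTN5, a netrin, stood at 1.32 and 0.691 CPM in shNC and 3.39 and 0.564 CPM in shANP32B, where its mean was above that of UNC5B. The neogenin ligand RGMB had 9 to 24 counts per library. NEO1 had at least 555 counts in every library, against at most 88 for the 3 others of its list.

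Of the 6 other plexins, 2 rose and 1 fell. PLXNA4, a partner of neuropilins, rose from 7.40 and 5.37 CPM to 25.9 and 24.1 CPM (log2 fold change 1.97, SE 0.21, adjusted p = 3.99e-05). PLXNA2 fell from 5.504 and 5.08 CPM to 1.20 and 1.17 CPM (-2.16, SE 0.35, adjusted p = 0.00120). PLXNB3 rose from 60.8 and 51.6 CPM to 99.4 and 74.6 CPM (0.63, adjusted p = 0.0116), a call that was lost without the first shANP32B library (adjusted p = 0.210). PLXNA1, at 333 and 280 CPM in shNC and 334 and 268 CPM in shANP32B, overlapped between the groups (-0.027, turning to 0.028 with library totals), and PLXNA3 and PLXNB1 did not pass. With the 3 plexins above, receptors of 1 family thus differed in either direction or stayed level in the same cells.

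Of 14 other semaphorins, 3 rose and 4 fell. SEMA4C, a ligand of PLXNB2, fell from 161 and 128 CPM to 75.2 and 62.2 CPM (-1.07, SE 0.14, adjusted p = 0.000245). SEMA3C, a ligand that uses neuropilins, rose from 84.2 and 84.6 CPM to 126 and 147 CPM (0.69, SE 0.12, adjusted p = 0.00162). SEMA7A, the ligand of PLXNC1, rose from 445 and 424 CPM to 539 and 557 CPM (0.34, adjusted p = 0.0284), a call lost without either shANP32B library (adjusted p = 0.135 and 0.266). SEMA4G fell (-1.39, adjusted p = 0.0292) from 8.68 and 3.74 CPM to 2.81 and 1.94 CPM, with the call lost under limma-voom and without the first shNC or second shANP32B library (adjusted p = 0.0539 to 0.282). Its log2 fold change was -0.66 without the first shNC library and -1.88 without the second. SEMA3F and SEMA4B also fell and SEMA6C rose. SEMA3E, the ligand of PLXND1, stood at 10.2 and 5.90 CPM in shNC and 6.40 and 5.76 CPM in shANP32B (-0.41, adjusted p = 0.371).

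Of 7 genes of the neuropilin and VEGF list, 2 rose and 1 fell. VEGFA, a growth factor that binds NRP1, fell from 595 and 413 CPM to 241 and 210 CPM (-1.16, SE 0.15, adjusted p = 0.000202). KDR, the VEGF receptor that works with NRP1 and is also an endothelial marker, rose from 2.90 and 2.44 CPM to 8.06 and 8.99 CPM (1.67, SE 0.28, adjusted p = 0.00144), and FLT4 rose from 0.643 and 0.813 CPM to 2.81 and 1.85 CPM (1.68, adjusted p = 0.0317). NRP2, the other neuropilin, had 25 to 52 counts per library and overlapped between the groups. Levels of the receptor NRP1 and of its ligand VEGFA thus differed in opposite directions in these cells.

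Of 10 other receptor-type phosphatases only PTPRE passed, and it fell from 51.3 and 50.3 CPM to 37.9 and 33.8 CPM (-0.50, SE 0.13, adjusted p = 0.0206). That call was lost without either shANP32B library (adjusted p = 0.0588 and 0.231). PTPRC was the highest of the list, at 406 and 434 CPM in shNC and 437 and 475 CPM in shANP32B, and did not pass (0.12, adjusted p = 0.460). Of 16 tested binding partners of the LAR phosphatases, 2 rose and 3 fell. HSPG2, the heparan sulfate proteoglycan perlecan, fell from 1260 and 1103 CPM to 673 and 731 CPM (-0.75, SE 0.099, adjusted p = 0.000267). The liprin gene PPFIA4, whose product binds the inner part of these phosphatases, fell from 40.0 and 17.0 CPM to 8.98 and 4.35 CPM (-2.09, SE 0.36, adjusted p = 0.00181). Its log2 fold change was -1.35 without the first shNC library and -2.72 without the first shANP32B library, and it passed in both fits. The syndecan SDC4 fell (-0.72, adjusted p = 0.0116), a call lost without the second shANP32B library (adjusted p = 0.109). SLITRK4 rose (1.36, adjusted p = 0.0346), a call lost without the second shNC or the first shANP32B library (adjusted p = 0.0758 and 0.0615), and SLITRK6 rose too. The log2 fold change of SLITRK4 was 2.20 when the first shNC library was removed and 0.83 when the second was.

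Of 45 tested genes of plexin and semaphorin signalling, 7 rose and 3 fell. GIPC1, an adaptor that binds the tail of NRP1 and of plexin D1, rose from 30.7 and 40.5 CPM to 72.8 and 67.7 CPM (0.98, SE 0.15, adjusted p = 0.000712). TIAM1, an exchange factor that activates the GTPase RAC1, rose from 9.18 and 6.79 CPM to 20.0 and 16.9 CPM (1.20, SE 0.21, adjusted p = 0.00219). FARP1, an exchange factor downstream of class A plexins, fell from 21.6 and 18.1 CPM to 9.21 and 8.83 CPM (-1.14, SE 0.19, adjusted p = 0.00155), and RACGAP1, a GTPase-activating protein, fell from 95.1 and 86.5 CPM to 59.5 and 60.02 CPM (-0.60, adjusted p = 0.00420). CFL1, the actin-severing protein cofilin and the highest gene of the list, rose (0.40, adjusted p = 0.0388), a call lost without the first shNC or second shANP32B library (adjusted p = 0.0752 and 0.128).

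**Figure D4:**
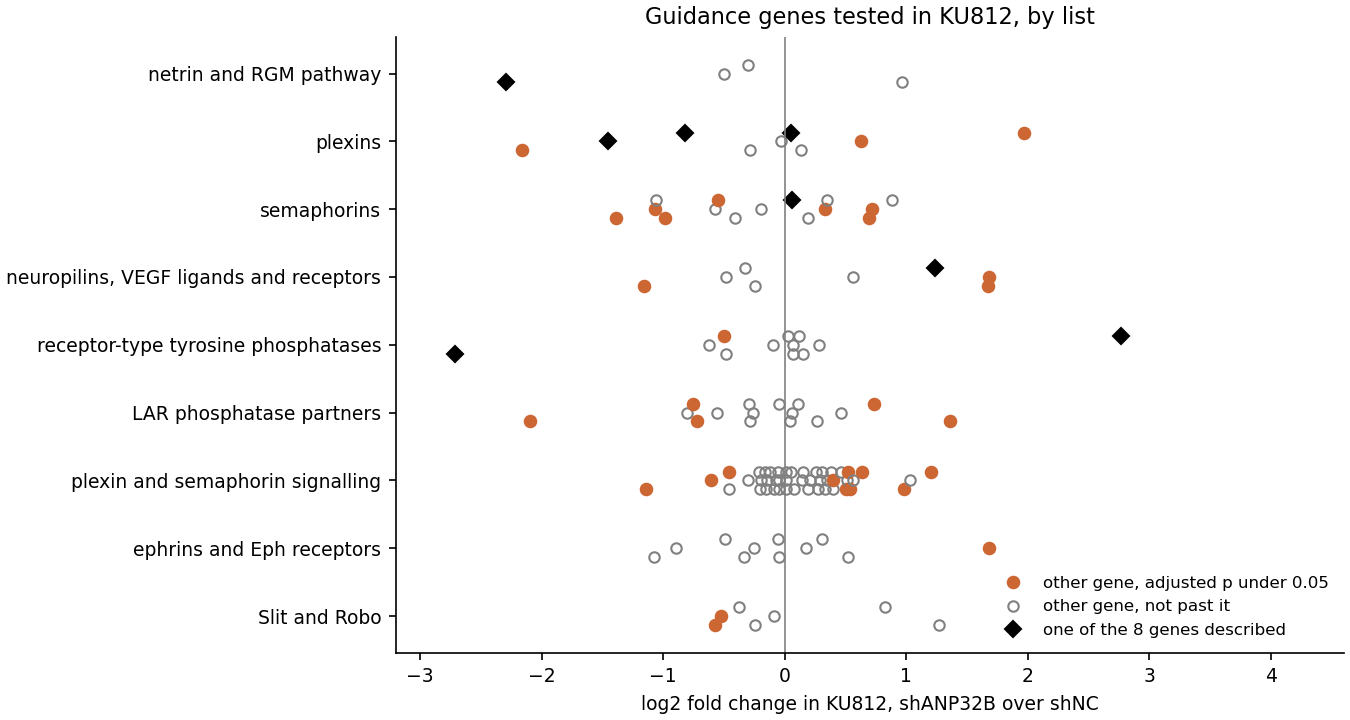
log2 fold change of shANP32B over shNC in KU812 for every tested gene of the 9 guidance lists, 1 row per list, with filled circles for other genes past an adjusted p of 0.05, open circles for those not past it and diamonds for the 8 genes described. The filled circles lie on both sides of 0, with 17 higher and 15 lower.

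In LSK cells 115 genes of the same lists were tested and none passed by edgeR, DESeq2 or limma-voom. Without the second WT library some did, but that fit leaves 1 WT library and many genes outside the lists passed in it too. Nothing is read from calls in that fit. At an unadjusted p under 0.05 by edgeR, 9 of the 115 passed, beside 657 of all 14598 genes tested (4.5%). The genes named next had the smallest p of their lists or the highest level, and none passed after adjustment. Plxna1 stood at 15.7 and 14.9 CPM in WT and 18.0 and 17.4 CPM in KO (0.21, adjusted p = 0.986), and Sema7a, the ligand of Plxnc1, at 4.71 and 6.67 CPM in WT and 10.7 and 8.80 CPM in KO (0.78, adjusted p = 0.986). Ptpro stood at 6.48 and 6.01 CPM in WT and 4.23 and 3.70 CPM in KO (-0.66, adjusted p = 0.986). Sema6c (0.97), Vegfb (0.35), Unc5a (-0.33), Sdc2 (-0.55), Il1rap (-0.22) and Limk2 (-0.42), given as log2 fold changes, were likewise not past it. Vegfa stood at 279 and 142 CPM in WT and 181 and 177 CPM in KO, with the KO libraries between the WT libraries. Its log2 fold change of -0.23 turned to 0.34 without the first WT library and reached -0.64 without the second. The highest genes of the other lists overlapped between the groups (Ntng2, Plxna3, Sema4a, Ptprc, Cfl1) or differed little (Ppfia1, -0.14), and none passed. Met, the hepatocyte growth factor receptor that can pair with plexins of class B, stood at 25.0 and 19.7 CPM in WT and 13.2 and 9.15 CPM in KO (-1.004, SE 0.25, adjusted p = 0.986). Its log2 fold change was -0.82 without the first WT library and -1.17 without the second. In 1 edgeR model over both systems, 3 of 111 guidance genes outside the set, TIAM1, SEMA4C and GIPC1, passed the test of a difference between the KU812 and LSK effects (2.70%, a share near the 2.22% of the 10771 symbols tested). Each of these calls was lost in at least 1 fit that left out a library, with adjusted p up to 0.0733, 0.140 and 0.1599.

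Genes with the pattern most like each of the 8 were found by the root mean square difference of log2 CPM over the 8 libraries, each centred on the mean of its system. The search covered 8586 symbols shared by both species with a mean of at least 50 counts in each system, without predicted genes. The 8 genes themselves were not held to this limit. For NEO1 the nearest genes were HIST1H1C (0.122) and HGF (0.227), for PLXND1 CDCA7 (0.0770) and MSRB3 (0.0971), and for PTPRF CERCAM (0.157) and LRP1 (0.185). For PTPRS they were RGAG4 (0.216) and UNC13A (0.291), for NRP1 SMYD3 (0.0886) and HLX (0.0935), and for PLXNC1 POLR2K (0.0892) and ANGPT1 (0.0921). The level genes PLXNB2 and SEMA4D were nearest to KDM2A (0.0526) and CPNE1 (0.0544), and to ARID1A (0.0211) and USP22 (0.0275). PTPRS, with a log2 fold change of 2.77 in KU812, had the most distant nearest gene of the 8, and SEMA4D (0.062) the closest. The distance depends on how large the KU812 difference is, so nothing is read from this order.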

How the data were processed

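RNA was taken from 4 LSK and 4 KU812 samples, 2 per group, and 1 ug of total RNA entered each library, per the labels' protocols. HISAT2, TopHat, Cufflinks and DESeq and the builds GRCm38 and GRCh38 appear in the submitters' processing notes with no role or version. The counter, its strand setting and its annotation were not given in the sources used here. Reads of genes that overlap can therefore not be separated. The tables deposited by the authors hold unnormalized counts, 1 whole number for each gene symbol and library, per the file headers. The members and lists were chosen with earlier results of these data known. Each system was fitted with edgeR 4.0.16 in R 4.3.3 (filterByExpr, TMM, quasi-likelihood test, Benjamini-Hochberg adjustment over all genes tested, threshold 0.05). SE values are the coefficient over the root of F. The difference between the systems was tested in 1 model over 10771 of 10855 shared symbols. Scripts were tested on simulated data.

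Named genes were the 8 genes, ANP32B and, from each list, up to 4 genes in KU812 (past the threshold) and 2 in LSK with the smallest p and a mean of at least 50 counts, plus the gene with the highest control CPM. SEMA3E, SEMA3F, SEMA4B, SEMA6C, PLXNA3, PLXNB1, FLT4, NRP2, RGMB, NTN5, PTPRD, SLITRK6, Ptpre and Ptpra were named after their values were seen. Alternatives were library totals, DESeq2 1.42.0, limma-voom (limma 3.58.1), no filter, a replicate block, a prior count of 2 and leaving out each library. Spearman correlations of replicates across genes were 0.977 (WT), 0.987 (KO), 0.979 (shNC) and 0.979 (shANP32B).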

Additional observations from a re-analysis of the deposited data

Results flagged for a closer look

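Adjusted p-values are those of the edgeR test of the difference between the systems. The 3 genes that passed are 2.70% of 111 guidance genes, near the 2.22% over all symbols tested, so nothing is read from their number. For TIAM1 the KU812 effect minus the LSK effect was 1.58 (SE 0.24, adjusted p = 0.0109), from 1.20 in KU812 and -0.36 in LSK cells. Every depleted library was higher in KU812 and every KO library lower in LSK cells. Groups did not overlap for 58.5% of all genes in KU812 and 33.2% in LSK cells, so nothing is read from that. The TIAM1 call was lost without either KO library, with differences of 1.55 without the first and 1.61 without the second. For SEMA4C, a ligand of PLXNB2, the difference was -1.19 (SE 0.24, adjusted p = 0.0286), from -1.07 and 0.13, and for GIPC1, which binds NRP1, it was 1.02 (SE 0.21, adjusted p = 0.0364), from 0.98 and -0.015. Both calls were lost in several fits that left out 1 library, with adjusted p up to 0.140 for SEMA4C and 0.1599 for GIPC1. Species, cell type and the way ANP32B was lost all differ between the systems and cannot be told apart.

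PLXND1 was lower in both shANP32B libraries (log2 fold change -1.45) and Plxnd1 slightly higher in both KO libraries (0.11), where it did not pass the threshold. In LSK cells the groups did not overlap for 33.2% of all genes tested, so nothing is read from the opposite sign. This difference between the systems was not tested.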

How the results depend on the processing

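The log2 fold changes of the 8 genes did not reverse where they had passed the threshold, and 146 of 160 alternative values moved by less than 1 SD between replicates. In KU812, 2741 genes passed (1244 higher, 1497 lower), 4164 with a replicate block, 1413 to 4047 with 1 library left out (1413 without the second and 1621 without the first shANP32B library), and 1474 higher and 1182 lower with library totals, which moved the median of all genes from 0.0041 to 0.060. In LSK cells the count of 0 became 12 with DESeq2, 15 with a replicate block and 0 to 830 with 1 library left out (36 without the first WT library, 830 without the second, and 5 with the first KO library removed). The 32 guidance genes in KU812 became 37 with the block and 19 to 36 with 1 library left out, and the 0 in LSK cells 0 to 6. The 239 symbols whose response differed between the systems became 581 with DESeq2, 285 with the block and 38 to 719 with 1 library left out (38 and 51 without the second and first KO library, 53 and 98 without the second and first shANP32B library, 102 without the first shNC and 719 without the second WT library). Replicate numbers are shared only as numbers, and deviations of same-numbered libraries correlated at 0.21 in KU812 and -0.052 in LSK cells. Of 468 alternative values of named list genes, 9 reversed: Ntng2 (0.0036 with limma-voom, and -0.32 to 0.24 with 1 library left out), PLXNA1 (0.028 with library totals, 0.098 without the first shNC and 0.11 without the second shANP32B library, over a range of -0.20 to 0.11), Plxna3 (-0.036 without the first WT library, to 0.29) and Vegfa (0.34 without it, down to -0.64), and Ephb2 (-0.12 without the second WT and -0.057 without the second KO library, to 0.18). A further 28 of the 468 values lost a call and 3 gained one, mostly in fits that left out 1 library. The cause of these changes was not tested. Genes below 10 counts in sum were not analysed here, and Neo1, with 17 to 23 counts, sets the limit of precision in LSK cells.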

Other observations

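In KU812, of 11 tested ephrin and Eph receptor genes 1 passed, EPHA4, which rose from 2.39 and 1.75 CPM in shNC to 6.28 and 7.05 CPM in shANP32B (log2 fold change 1.68, SE 0.32, adjusted p = 0.00304 by edgeR). EPHB4, the highest of that list, stood at 61.4 and 69.0 CPM in shNC and 55.3 and 54.1 CPM in shANP32B (-0.25, adjusted p = 0.190). Of 7 genes of the Slit and Robo list, 2 fell. ROBO1, a Slit receptor, fell from 188 and 145 CPM to 119 and 113 CPM (-0.52, adjusted p = 0.0146), and ROBO2 from 70.7 and 72.4 CPM to 43.4 and 52.6 CPM (-0.58, adjusted p = 0.00985). The ROBO1 call was lost without the second shANP32B library (adjusted p = 0.0679) and the ROBO2 call without the first (adjusted p = 0.161). In LSK cells Robo4, a receptor of endothelial and stem cells, stood at 26.1 and 34.2 CPM in WT and 44.4 and 39.0 CPM in KO (0.47, adjusted p = 0.986), Srgap2 at 69.9 and 70.6 CPM in WT and 64.0 and 64.8 CPM in KO (-0.13), and neither passed, nor did Epha7, Ephb2 or Ephb4. The log2 fold change of Robo4 was 0.28 without the first WT library and 0.67 without the second.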
